A study of Mus musculus with 6 samples.

Results

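The 9 genes described here mark the hepatocytes around the central vein of the liver lobule and depend on Wnt signalling: Glul, Oat, Slc1a2, Rhbg, Axin2, Tbx3, Lgr5, Rnf43 and Znrf3. They were taken as a named list, and every probe set that the platform annotation assigned to exactly 1 of these symbols was used, which gave 21 probe sets for 9 genes out of 45037 probe sets and 18193 named genes on the array. A probe set is a group of short probes that reads 1 stretch of a transcript. Liver samples of C57BL/6 mice, called livers here, were measured on 6 GeneChip 3' expression arrays: 3 came from mice given an AAV8 vector expressing Nfkbiz, the gene of the nuclear IκB protein IκBζ, and 3 from mice given an AAV8 vector expressing luciferase. All mice received the vector intravenously and, after 4 weeks, a further 4 weeks of CDAHFD, a high-fat diet without choline that serves as a fatty liver disease model. Every liver therefore carried an AAV8 vector and was on the diet, and no untreated or normally fed liver is analysed here. No source used here gives the animals' age or the vector's promoter. The comparison asked which transcripts differed between the Nfkbiz and the luciferase vector on this diet.

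Hepatocytes along the lobule differ in their metabolism. Endothelial cells of the central vein release Wnt ligands and R-spondin 3, and the hepatocytes next to them answer through β-catenin with a fixed set of transcripts. Some of these serve the capture of ammonia as glutamine, and others are parts of the Wnt pathway itself that feed back on it. In the Wnt receptor complex, R-spondins bound to LGR proteins take away the ligases RNF43 and ZNRF3, which would otherwise remove Frizzled receptors from the cell surface.

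Values are linear MAS5 intensities, which the authors had scaled to 1 target per array. The mean of the middle 96% of intensities was between 495.1 and 496.3 on all arrays, which follows from that scaling. The median intensity ran from 78.2 in AAV8-Nfkbiz replicate 2 to 95.2 in AAV8-luciferase replicate 1. Each log2 difference is the AAV8-Nfkbiz mean minus the AAV8-luciferase mean of log2 intensities, with limma's moderated standard error (SE), and a gene or probe set was called at a Benjamini-Hochberg adjusted p under 0.05. Probe set 1448728_a_at of the overexpressed gene Nfkbiz read 4424, 4073 and 2006 in AAV8-Nfkbiz livers, against 221, 230 and 180 in AAV8-luciferase livers. The other probe sets of Nfkbiz differed by 0.30 and -0.89 and were not called. Hepatocyte markers (9 genes tested) summed to intensities of 302190 to 344343 in AAV8-Nfkbiz livers and 304624 to 355504 in AAV8-luciferase livers. Of these 9, Tat was called as lower (log2 difference -1.17), Hnf4a differed by -0.35 (unadjusted p = 0.0333, limma adjusted p = 0.363), and the most abundant genes weigh most in the sum. AAV8-luciferase replicate 3 stood apart from the other 5 arrays on the second principal component, at 45.1 where the others lay between -21.1 and -3.11.

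Of the 9 genes, 1 was called: Slc1a2 fell in AAV8-Nfkbiz livers. In the fit with 1 probe set per gene, over 13312 genes, 0.225% of genes were called, 0.158% as lower and 0.0676% as higher. At an unadjusted p under 0.05, 3 of the 9 genes were lower by their brightest probe set (Slc1a2, Lgr5 and Znrf3) and 0 were higher, where 12% of all tested genes had such a p, 7% lower and 5.03% higher. The second probe set of Znrf3 read higher, as described with that gene. The groups did not overlap for 3 of the 9 genes (Glul, Slc1a2 and Znrf3), each lower in AAV8-Nfkbiz livers by that probe set, against 10% of all tested genes in that direction and 18% in either (8% higher). In the fit of single probe sets, 15 of the 21 passed the filter on low intensities and 0 of these were called by limma, where 0.0703% of 27022 probe sets were called (0.0518% as lower). At an unadjusted p under 0.05, 4 of the 15 were lower and 1 was higher, against 10.6% of all tested probe sets, 6.47% lower and 4.14% higher. Groups without overlap were found for 3 of the 15 as lower and 1 as higher, against 16.7% of all tested probe sets, 9.69% lower and 7.03% higher. The members' median log2 difference was -0.24 over the 9 genes and -0.02 over all genes tested, and it was -0.11 without AAV8-Nfkbiz replicate 3. Nothing in the labels states outright that each array is another mouse, so the spread behind the p-values may in part be technical.

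**Figure D1:**
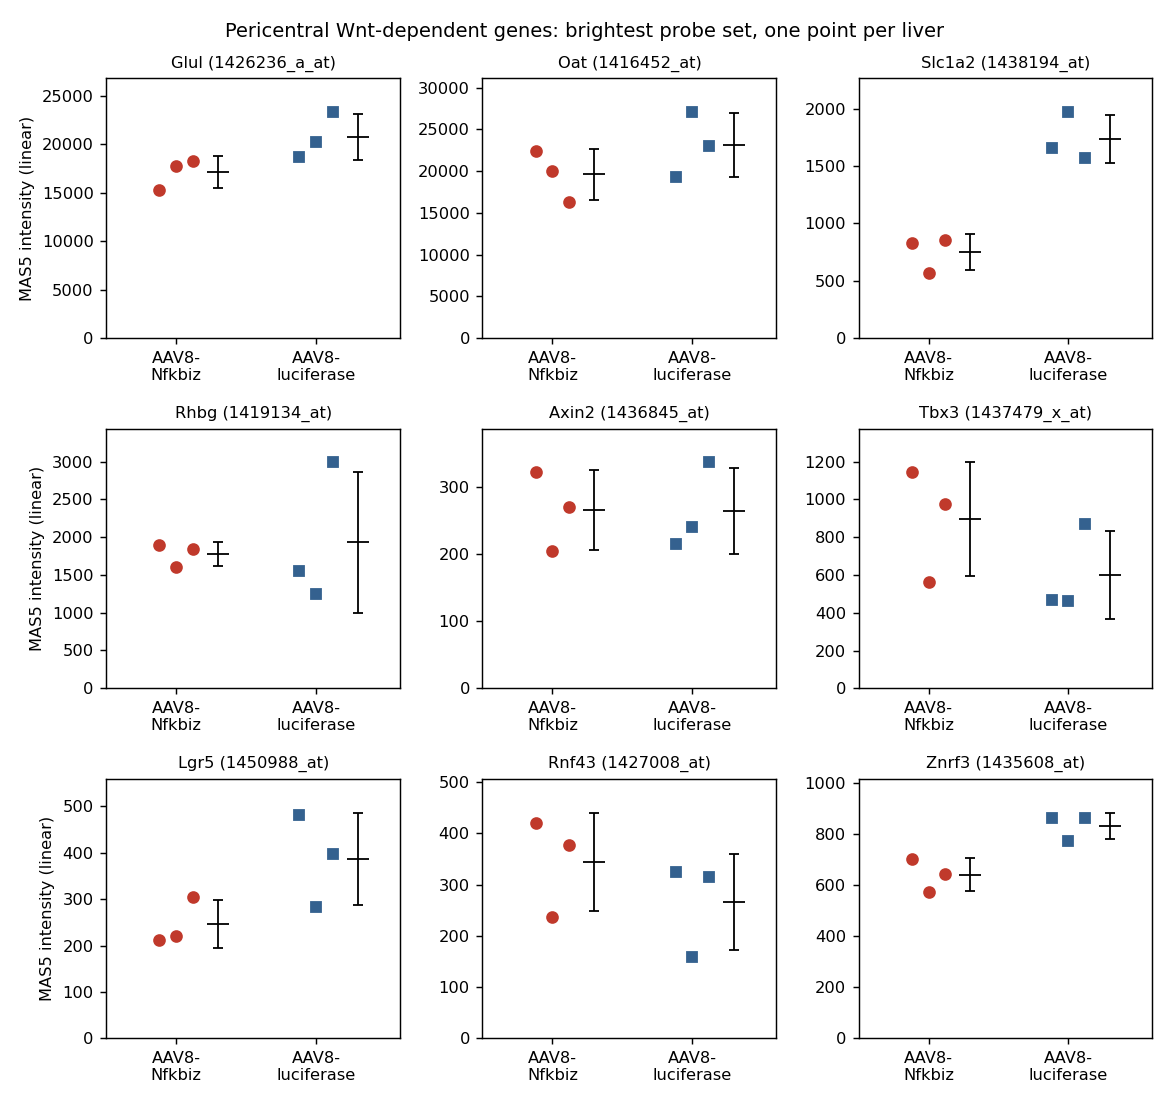
MAS5 intensity (linear axis from 0) of the brightest probe set of each of the 9 genes, with 1 point per liver and, beside the points, the mean and SD of 3 livers. AAV8-Nfkbiz livers (circles) and AAV8-luciferase livers (squares) are fully apart for Glul, Slc1a2 and Znrf3, and Slc1a2 has the widest gap, with means of 752 and 1732.

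Glul, Oat, Slc1a2 and Rhbg carry the nitrogen metabolism of the central vein. Glul is the glutamine synthetase gene, whose enzyme joins ammonia to glutamate and which in the healthy liver is nearly confined to the hepatocytes that touch the vein. Its brighter probe set 1426236_a_at read 15241, 17799 and 18287 in AAV8-Nfkbiz livers, against 18699, 20261 and 23283 in AAV8-luciferase livers. The groups did not overlap, but the gap between them, from 18287 to 18699, was small beside the spread within either group. The log2 difference was -0.28 ± 0.13 (SE, 95% interval -0.57 to 0.02), and it was not called (limma adjusted p = 0.494 over probe sets). The second probe set, 1426235_a_at, read 7317, 10182 and 8370 in AAV8-Nfkbiz livers, against 9876, 11780 and 7315 in AAV8-luciferase livers. There the groups overlapped fully, with a log2 difference of -0.15 ± 0.19 (limma adjusted p = 0.811).

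Oat encodes ornithine aminotransferase, which converts ornithine to a glutamate precursor. Its 1 probe set, 1416452_at, read 22437, 20054 and 16324 in AAV8-Nfkbiz livers and 19306, 27046 and 23059 in AAV8-luciferase livers. The lowest liver belonged to the AAV8-Nfkbiz group and the highest to the AAV8-luciferase group, and the others were interleaved. The log2 difference was -0.24 ± 0.16 (95% interval -0.60 to 0.12, limma adjusted p = 0.635), and between -0.36 and -0.11 when any 1 array was left out. Rhbg encodes an ammonium transporter of the Rhesus family. It read 1901, 1602 and 1846 in AAV8-Nfkbiz livers, against 1558, 1247 and 2989 in AAV8-luciferase livers. All 3 AAV8-Nfkbiz livers lay inside the range of the AAV8-luciferase livers, which was set by AAV8-luciferase replicate 3. The log2 difference was -0.016 ± 0.27 (95% interval -0.62 to 0.59, limma adjusted p = 0.989), and without that array it was 0.35 (limma adjusted p = 0.347). The sign of the Rhbg difference also turned positive after quantile normalization and after median centring.

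Slc1a2 encodes the glutamate transporter GLT-1, which in hepatocytes takes up the glutamate used by glutamine synthetase. Its brightest probe set, 1438194_at, read 827, 570 and 859 in AAV8-Nfkbiz livers, against 1657, 1968 and 1571 in AAV8-luciferase livers. The highest AAV8-Nfkbiz liver was well below the lowest AAV8-luciferase liver. The means were 752 ± 158 in AAV8-Nfkbiz livers and 1732 ± 209 in AAV8-luciferase livers (SD, n = 3 each), a ratio of 0.429 from the log2 means, with a log2 difference of -1.22 ± 0.18 (95% interval -1.62 to -0.82). It had rank 19 by p among 13312 genes, with a limma adjusted p of 0.0316. In the fit of single probe sets the same values gave a limma adjusted p of 0.0575, just above the threshold and so not called. Leaving out any 1 of the 6 arrays kept the difference between -1.33 and -1.03 and ended the gene-level call, with limma adjusted p-values between 0.0518 (without AAV8-Nfkbiz replicate 3) and 0.122 (without AAV8-luciferase replicate 2).

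The other probe sets of Slc1a2 showed smaller differences. Probe set 1451627_a_at read 862, 845 and 789 in AAV8-Nfkbiz livers, against 994, 1038 and 786 in AAV8-luciferase livers, and the lowest reading of all was an AAV8-luciferase liver. Its log2 difference was -0.17 ± 0.16 (95% interval -0.51 to 0.18, limma adjusted p = 0.739). Probe set 1439940_at read 127, 105 and 175 in AAV8-Nfkbiz livers, against 256, 157 and 229 in AAV8-luciferase livers. Here 1 AAV8-luciferase liver lay among the AAV8-Nfkbiz livers, and the log2 difference was -0.67 ± 0.29 (limma adjusted p = 0.451). The difference read by 1438194_at exceeded that of 1451627_a_at by -1.05 on the log2 scale, with an exact two-sided permutation p of 0.1 over the arrays (adjusted p = 0.1 over 2 such comparisons). That is the smallest p that 3 arrays against 3 allow. Averaged over its 3 tested probe sets, Slc1a2 differed by -0.68 and was not called (limma adjusted p = 0.186). Where on the transcript these probe sets lie was not known from the sources used here. A further probe set, 1433095_at, is assigned to both Slc1a2 and Gm13872 and was left out by the rule. It read 80.3 ± 30.8 in AAV8-Nfkbiz livers and 93.8 ± 17.7 in AAV8-luciferase livers (SD, n = 3 each).

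**Figure D2:**
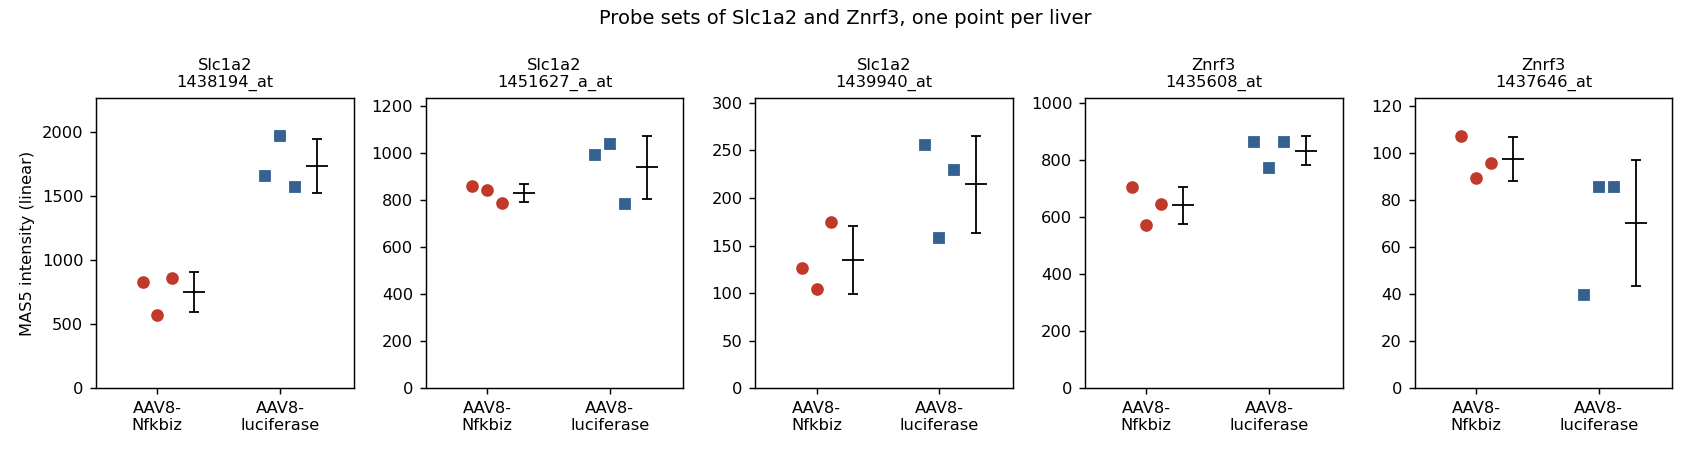
MAS5 intensity (linear axis from 0) of the 3 tested probe sets of Slc1a2 and the 2 of Znrf3, with 1 point per liver and the mean and SD of 3 livers beside the points. The gap of 1438194_at, with means of 752 in AAV8-Nfkbiz and 1732 in AAV8-luciferase livers, is not seen at that size in 1451627_a_at (832 and 939), and the Znrf3 probe sets differ in opposite directions.

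Promoter windows of 5 of the 9 genes were matched in the RefSeq table used here (GRCm38.p6), and those of Rhbg, Tbx3, Lgr5 and Znrf3 are not analysed here. The windows of Slc1a2, the called gene, of Glul, the best known zonation marker, and of Axin2, the standard readout of β-catenin, are shown because T-cell factors, the DNA-binding partners of β-catenin, bind motifs with the core CTTTGAA or CTTTGAT. Both motifs were searched on both strands in the window from 250 bases before to 50 bases after the listed start site, and matches are in capitals. The windows are chr2:102706188-102706487 on the plus strand, chr1:153899679-153899978 on the plus strand, and chr11:108920099-108920398 on the plus strand.
Slc1a2: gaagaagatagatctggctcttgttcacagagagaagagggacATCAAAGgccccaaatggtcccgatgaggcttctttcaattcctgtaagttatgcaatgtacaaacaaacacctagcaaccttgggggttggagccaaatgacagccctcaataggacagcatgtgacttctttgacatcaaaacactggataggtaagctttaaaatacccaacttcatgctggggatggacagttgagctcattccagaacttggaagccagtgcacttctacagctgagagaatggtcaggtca
Glul: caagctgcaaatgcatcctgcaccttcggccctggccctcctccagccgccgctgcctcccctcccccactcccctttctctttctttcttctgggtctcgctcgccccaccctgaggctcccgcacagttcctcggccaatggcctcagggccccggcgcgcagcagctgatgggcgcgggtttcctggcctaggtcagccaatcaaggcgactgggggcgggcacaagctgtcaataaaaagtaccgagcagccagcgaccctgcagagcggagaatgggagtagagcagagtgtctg
Axin2: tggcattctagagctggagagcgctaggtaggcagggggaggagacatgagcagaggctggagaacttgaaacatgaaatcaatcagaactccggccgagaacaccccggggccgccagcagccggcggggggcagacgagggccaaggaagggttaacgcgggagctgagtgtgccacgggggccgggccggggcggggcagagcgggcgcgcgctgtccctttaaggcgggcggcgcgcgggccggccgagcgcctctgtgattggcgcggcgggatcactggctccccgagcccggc
The Slc1a2 window held 1 match, to CTTTGAT on the opposite strand, beginning at position -207 from the start site. The Glul and Axin2 windows held 0 matches, as did those of Oat and Rnf43, and 8.65% of 32851 promoter windows of this length held at least 1. A match is a string of letters in this window and was not tested as a binding site, and enhancers outside the window were not searched.

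The other 5 genes are parts or targets of the Wnt pathway, and their differences went both ways. Axin2 encodes a scaffold of the complex that degrades β-catenin and is induced by β-catenin in most tissues. Its probe set 1436845_at read 322, 204 and 269 in AAV8-Nfkbiz livers, against 214, 240 and 336 in AAV8-luciferase livers. The groups shared 1 range, with means of 265 ± 59.1 in AAV8-Nfkbiz livers and 263 ± 64.2 in AAV8-luciferase livers (SD, n = 3 each). The log2 difference was 0.012 ± 0.25 (limma adjusted p = 0.99), and its 95% interval, -0.54 to 0.57, leaves room for a change of moderate size in either direction.

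Lgr5 encodes the R-spondin receptor of pericentral hepatocytes and of intestinal stem cells. Its probe set 1450988_at read 212, 221 and 305 in AAV8-Nfkbiz livers, against 481, 283 and 396 in AAV8-luciferase livers. Only the highest AAV8-Nfkbiz and the lowest AAV8-luciferase liver crossed. The log2 difference was -0.64 ± 0.24 (95% interval -1.18 to -0.10, limma adjusted p = 0.409), and it stayed between -0.85 and -0.47 when any 1 array was left out.

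Znrf3 and Rnf43 encode membrane ubiquitin ligases that remove Frizzled receptors. Znrf3 probe set 1435608_at read 704, 573 and 644 in AAV8-Nfkbiz livers, against 862, 772 and 862 in AAV8-luciferase livers, with no overlap between the groups. Its log2 difference was -0.38 ± 0.15 (95% interval -0.72 to -0.05, limma adjusted p = 0.424). The dimmer Znrf3 probe set 1437646_at went the other way and also without overlap. It read 108, 89.4 and 96 in AAV8-Nfkbiz livers, against 39.5, 85.9 and 85.8 in AAV8-luciferase livers, a log2 difference of 0.55 ± 0.40 (limma adjusted p = 0.657). Without AAV8-luciferase replicate 1 that difference was 0.18. The differences of the 2 probe sets were apart by -0.94 (exact two-sided permutation p = 0.1, the smallest possible, adjusted p = 0.1 over 2 comparisons). Groups fully apart in opposite directions fix that p in advance, so it adds no evidence. Only Slc1a2 and Znrf3 were compared in this way, though Glul and Tbx3 also had more than 1 tested probe set. As the probe sets of Znrf3 differed in opposite directions, no direction is given for it as a gene. Rnf43 read 420, 236 and 377 in AAV8-Nfkbiz livers, against 325, 158 and 314 in AAV8-luciferase livers. Both groups held 1 low liver, and the log2 difference was 0.40 ± 0.32 (95% interval -0.30 to 1.11, limma adjusted p = 0.682). It was 0.067 without AAV8-luciferase replicate 2, the low liver of that group, and 0.66 without AAV8-Nfkbiz replicate 2, the low liver of the other.

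Tbx3 encodes a T-box transcription factor that β-catenin induces in liver. All 3 of its tested probe sets read higher on average in AAV8-Nfkbiz livers, and 0 were called. Of these, 1439567_at passed the filter only through its AAV8-Nfkbiz readings, so its direction carries little weight. Probe set 1448029_at read 1127, 665 and 834 in AAV8-Nfkbiz livers, against 479, 350 and 749 in AAV8-luciferase livers. The highest AAV8-luciferase liver, replicate 3, exceeded the lowest AAV8-Nfkbiz liver. The log2 difference was 0.77 ± 0.28 (95% interval 0.15 to 1.40, limma adjusted p = 0.392), and with 1 array left out it lay between 0.51 (without AAV8-luciferase replicate 2) and 1.06 (without AAV8-luciferase replicate 3). Probe set 1437479_x_at read 1147, 563 and 976 in AAV8-Nfkbiz livers, against 466, 461 and 868 in AAV8-luciferase livers, a log2 difference of 0.59 ± 0.31 (limma adjusted p = 0.532), and between 0.38 (without AAV8-Nfkbiz replicate 1) and 0.89 (without AAV8-Nfkbiz replicate 2) with 1 array left out. The dim probe set 1439567_at differed by 1.22 ± 0.64 (limma adjusted p = 0.53), with means of 76.6 in AAV8-Nfkbiz and 38.3 in AAV8-luciferase livers. It was 0.58 without AAV8-luciferase replicate 2 and 0.67 with log2(intensity + 32). The AAV8-luciferase mean of this probe set lay under the filter intensity of 47.4. Of the Tbx3 probe sets below the filter, 1445757_at differed by 0.65 and 1444594_at by -0.40, both untested.

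**Figure D3:**
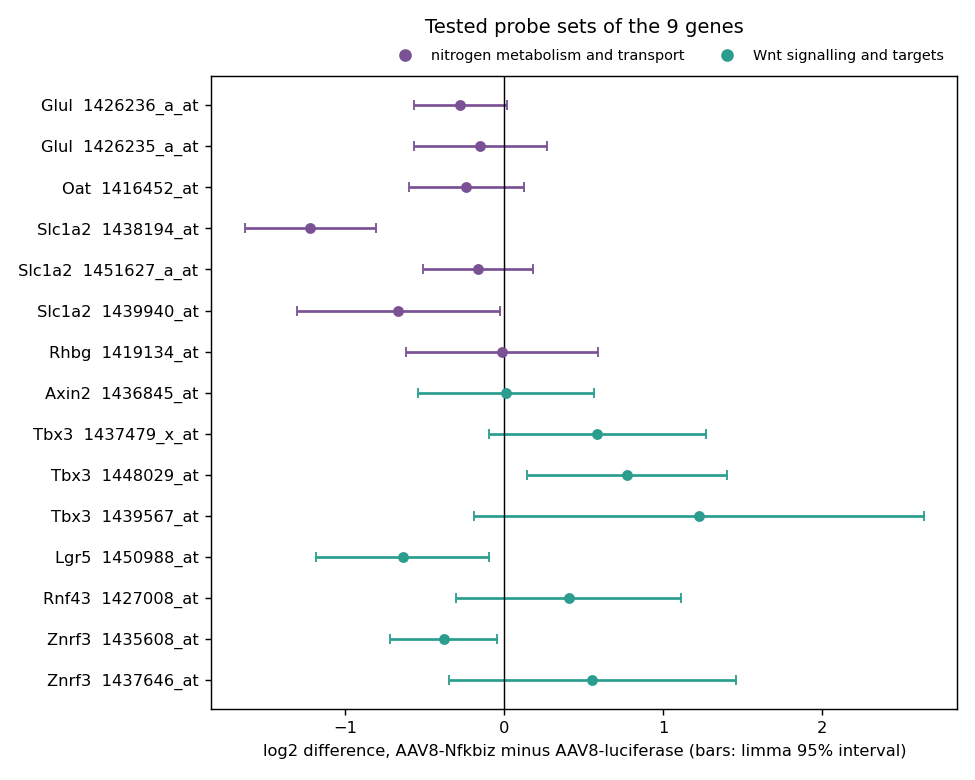
Log2 difference, AAV8-Nfkbiz minus AAV8-luciferase, of the 15 tested probe sets of the 9 genes, with limma's 95% interval as bars. The 7 probe sets of nitrogen metabolism genes (Glul, Oat, Slc1a2, Rhbg) lie between -1.22 and -0.016, whereas those of the Wnt pathway genes lie on both sides of 0.

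The 7 tested probe sets of Glul, Oat, Slc1a2 and Rhbg all had negative differences, with a median of -0.24, and the 8 of the pathway genes had a median of 0.48 with 6 positive. For all tested probe sets the median was -0.02, and 14325 of 27022 were negative, as were 52.2% of all tested genes. Of the 7, 3 read Slc1a2 and 2 read Glul, and of the 8, 3 read Tbx3 and 2 read Znrf3, so genes are not counted equally. The 6 positive include Tbx3 1439567_at, which passed the filter only through its AAV8-Nfkbiz readings. With 1 probe set per gene, the 5 pathway genes had a median of 0.012 with 3 positive and 2 negative. The negative ones include Znrf3, whose second probe set went the other way. The 4 nitrogen metabolism genes had a median of -0.26 with all 4 negative. Rhbg, at -0.016, turned positive after quantile normalization, after median centring and without AAV8-luciferase replicate 3. The contrast was not tested. The 6 probe sets below the filter, which belonged to Slc1a2, Axin2, Tbx3 and Lgr5, had group means between 5.37 and 46.7 and were not tested. Among the tested probe sets, Rhbg varied most within AAV8-luciferase livers after the dim Tbx3 probe set 1439567_at, with a coefficient of variation of 48.1% against 8.93% in AAV8-Nfkbiz livers.

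In whole liver, fewer cells of a type and less RNA per cell cannot be told apart. For the marker counts that follow, 12% of all tested genes had an unadjusted p under 0.05, 7% lower and 5.03% higher, and 0.225% were called. Kupffer cell and macrophage markers stood higher in AAV8-Nfkbiz livers: 10 of 12 tested markers had an unadjusted p under 0.05, all in that direction, and 0 were called by limma. Their summed intensity was 48724 to 63514 in AAV8-Nfkbiz livers and 32812 to 45939 in AAV8-luciferase livers. The T, NK and B cell markers had 1 of 9 called, Gzma (log2 difference 1.77), 3 higher at an unadjusted p under 0.05, and a median of 0.66. Neutrophil markers had a median of 0.33 (6 genes, 0 called by limma, 2 higher at an unadjusted p under 0.05). Cholangiocyte markers had a median of 0.05 (5 genes, 0 called by limma, 1 lower at such a p), and -0.77 without AAV8-luciferase replicate 3. Stellate cell markers had a median log2 difference of -0.22 (12 genes, 0 called by limma, 4 at an unadjusted p under 0.05), and -0.43 without AAV8-luciferase replicate 3. Markers of endothelial cells, which release the Wnt ligands, summed to between 9527 and 11950 in AAV8-Nfkbiz livers and between 5855 and 11684 in AAV8-luciferase livers, the lowest being replicate 3. Of the 12 endothelial markers 0 were called by limma, and 10 had positive and 2 negative differences. The 2 with an unadjusted p under 0.05 went opposite ways. Vwf, which was dim, differed by -1.10 ± 0.34 without overlap (limma adjusted p = 0.247). Clec4g, the brightest of the 12, differed by 0.63 ± 0.21 (limma adjusted p = 0.29). The median log2 difference of the 12 was 0.22, and -0.18 without AAV8-luciferase replicate 3. None of these markers was at 0, and their part in the differences of the 9 genes was not tested.

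Of 97 other genes of the Wnt pathway, from ligands to target genes, 72 were tested, and 0 were called by limma. At an unadjusted p under 0.05 there were 2 higher and 3 lower, or 6.94%, against 12% of all tested genes. Among ligands, Wnt2, which central vein endothelium releases, read 289 ± 132 in AAV8-Nfkbiz livers and 187 ± 90.6 in AAV8-luciferase livers (SD, n = 3 each), a log2 difference of 0.64 ± 0.38 (limma adjusted p = 0.532). The R-spondin gene Rspo3 read 359 ± 85.7 in AAV8-Nfkbiz livers and 352 ± 67.5 in AAV8-luciferase livers, a log2 difference of 0.02 ± 0.23. Wnt9b, the other ligand of the central vein, was below the filter. Its probe set 1451711_at read 73.2, 52.5 and 45.8 in AAV8-Nfkbiz livers, against 5.59, 7.46 and 8.40 in AAV8-luciferase livers, without overlap. With all 18193 genes in the fit, Wnt9b was not called (limma adjusted p = 0.177), and its second probe set, 1443197_at, read between 8.72 and 43.5 with overlapping groups. Wnt5b, a ligand known mostly for signalling without β-catenin, differed by 0.72 ± 0.26, Wnt4 by -0.98 ± 0.62 and Wnt7a by 0.96 ± 0.61, and 0 of 12 tested ligand and ligand-processing genes were called by limma (1 at an unadjusted p under 0.05).

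Receptors and transducers gave no call either. Lgr4, the R-spondin receptor that most hepatocytes express, read 2775 ± 132 in AAV8-Nfkbiz livers and 3182 ± 539 in AAV8-luciferase livers (log2 difference -0.19 ± 0.14). The coreceptor gene Lrp6 differed by -0.33 ± 0.16, Fzd8 by -0.46 ± 0.21, Fzd2 by 0.70 ± 0.52 and the dim Fzd9 by -1.98 ± 0.59, and their limma adjusted p-values ran between 0.227 (Fzd9) and 0.633 (Fzd2). Ctnnb1, the β-catenin gene, read 10459 ± 502 in AAV8-Nfkbiz livers and 11032 ± 1227 in AAV8-luciferase livers (SD, n = 3 each), a log2 difference of -0.07 ± 0.13. Apc, a scaffold of β-catenin degradation, differed by -0.18 ± 0.17 and Tcf7l2, the main T-cell factor gene of liver, by -0.23 ± 0.16. Bcl9l, a β-catenin coactivator gene, had the smallest p among 26 transducers. It read 786 ± 59.3 in AAV8-Nfkbiz livers and 481 ± 64.1 in AAV8-luciferase livers (SD, n = 3 each), with no overlap and a log2 difference of 0.71 ± 0.16 (limma adjusted p = 0.141). Of the tankyrase genes, whose enzymes mark axin for degradation, Tnks differed by -0.39 ± 0.16 and Tnks2 by -0.31 ± 0.16, and the casein kinase gene Csnk1a1 differed by 0.23 ± 0.12.

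Secreted inhibitors and other target genes of the pathway were not called. Notum, a Wnt-inactivating enzyme gene that β-catenin itself induces, differed by -0.36 ± 0.17, Apcdd1 by -0.74 ± 0.39, the dim Sfrp1 by -1.49 ± 0.82 and Sfrp5 by -0.51 ± 0.32. Sfrp1 read 111, 14.6 and 21.0 in AAV8-Nfkbiz livers, against 151, 38.1 and 131 in AAV8-luciferase livers. Among 12 other targets tested, Zfp703 had the smallest p, with 68.5 ± 28.4 in AAV8-Nfkbiz livers and 213 ± 30.4 in AAV8-luciferase livers (SD, n = 3 each), a log2 difference of -1.73 ± 0.38 (limma adjusted p = 0.134). Tnfrsf19 differed by -0.69 ± 0.33 and Cd44 by 0.33 ± 0.18. The list medians were 0.11 for ligands, -0.09 for receptors, -0.10 for secreted inhibitors, -0.18 for transducers and 0.02 for other targets. Without AAV8-luciferase replicate 3 these medians were 0.0070 for ligands, -0.20 for receptors, -0.26 for secreted inhibitors, -0.18 for transducers and -0.05 for other targets.

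**Figure D4:**
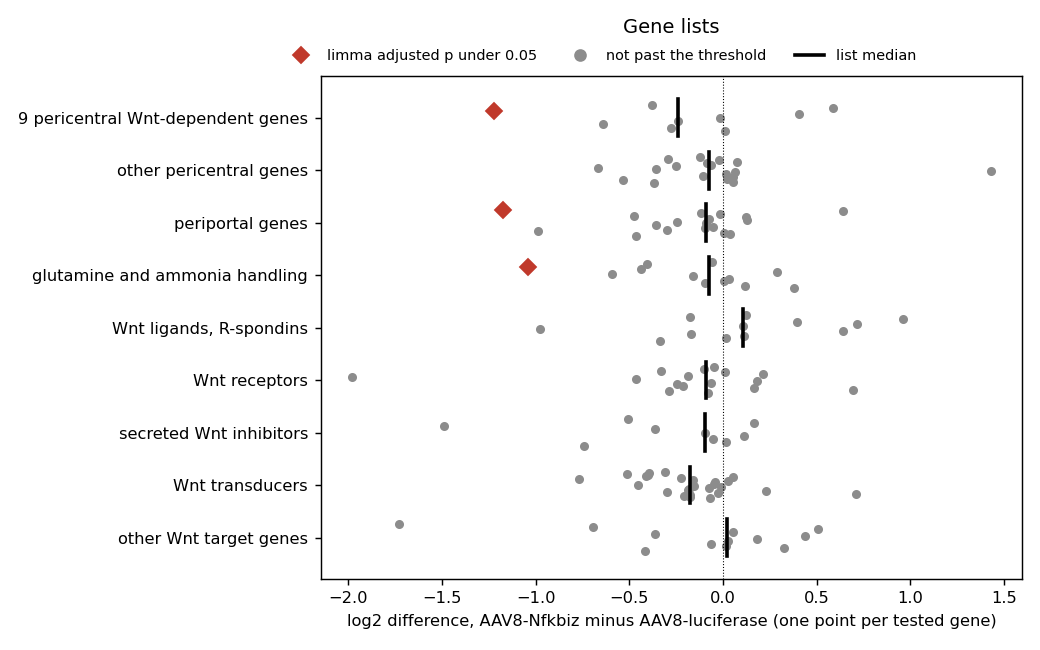
Log2 difference, AAV8-Nfkbiz minus AAV8-luciferase, of every tested gene of the 9 pericentral Wnt-dependent genes and of 8 related lists, with 1 point per gene and a bar at the list median. Diamonds mark the genes called by limma, which are Slc1a2 (-1.22), Tat (-1.17, periportal list) and Slc38a2 (-1.04, glutamine and ammonia list), and the list medians lie between -0.24 and 0.11.

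Other zonated genes were compared with the 9. Of 18 other pericentral genes tested, 0 were called by limma. At an unadjusted p under 0.05, 4 were lower and 1 was higher, and of 18 periportal genes 3 were lower and 0 higher. Of all tested genes 12% had such a p, 7% lower and 5.03% higher. Cyp1a2, a cytochrome P450 that depends on β-catenin, read 13280 ± 1085 in AAV8-Nfkbiz livers and 19227 ± 1300 in AAV8-luciferase livers (SD, n = 3 each), with no overlap and a log2 difference of -0.53 ± 0.12 (limma adjusted p = 0.154). Cyp2e1, the abundant pericentral P450, read 43429 ± 4530 in AAV8-Nfkbiz livers and 42953 ± 5041 in AAV8-luciferase livers, a log2 difference of 0.02 ± 0.14. Ahr, the dioxin receptor gene, differed by -0.37 ± 0.12, the glutathione transferase gene Gstm1 by -0.36 ± 0.12, and the bile acid synthesis gene Cyp7a1 by 1.43 ± 0.40. Among 18 periportal genes, Tat, the tyrosine aminotransferase gene, fell to 8915 ± 1391 in AAV8-Nfkbiz livers, against 20127 ± 3196 in AAV8-luciferase livers (SD, n = 3 each, log2 difference -1.17 ± 0.16, limma adjusted p = 0.0218). Its call ended without AAV8-Nfkbiz replicate 1 or 2 or without AAV8-luciferase replicate 2, at limma adjusted p-values between 0.0811 and 0.101, under median centring (0.0671) and without the variance trend (0.312). The periportal P450 gene Cyp2f2 differed by -0.05 ± 0.15, Cps1, the first enzyme of the urea cycle, by -0.09 ± 0.14, Pck1 by -0.47 ± 0.15, Aldh1b1 by -0.46 ± 0.20 and Sult5a1 by 0.64 ± 0.33. List medians were -0.08 for the other pericentral and -0.09 for the periportal genes, against -0.02 for all genes. The periportal median was -0.015 without AAV8-luciferase replicate 3 and -0.18 after cyclic loess normalization, and the other pericentral median was -0.13 after cyclic loess normalization.

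Around glutamine synthetase, 12 further genes of glutamine and ammonia handling were tested. At an unadjusted p under 0.05, 2 of them were lower and 0 higher, against 12% of all tested genes. Slc38a2, which encodes a sodium-coupled neutral amino acid transporter, was the 1 gene called. It read 2245, 1772 and 2493 in AAV8-Nfkbiz livers, against 4412, 3868 and 5070 in AAV8-luciferase livers, and fell by 1.04 ± 0.16 on the log2 scale (limma adjusted p = 0.0373). Leaving out any 1 array ended that call, with limma adjusted p-values between 0.0518 and 0.118. The call also ended under median centring (limma adjusted p = 0.0741), without the variance trend (0.317) and with probe sets averaged, where the difference was -0.58 (0.395). Its other probe sets differed by -0.95 ± 0.42 and 0.26 ± 0.37. Prodh, the proline dehydrogenase gene, differed by -0.59 ± 0.18 without overlap (limma adjusted p = 0.23). Slc38a3, the glutamine transporter SNAT3, differed by -0.41 ± 0.21 and the glutamine transporter gene Slc1a5 by -0.44 ± 0.32.

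Profiles over the 6 arrays were compared by the root-mean-square difference between log2 values centred on each gene's mean. The genes nearest to Slc1a2 were Tcim at 0.091, Vwf, the dim endothelial marker named above, at 0.107 and Ppargc1a at 0.142. The median over all other genes was 0.685. For Glul they were Rab4a at 0.043, Tcea3 at 0.043 and Washc4 at 0.043, where the median was 0.313. The low values for Glul go with a flat profile, whose SD over the 6 arrays was 0.20 on the log2 scale against 0.71 for Slc1a2. With 6 arrays and 13311 other genes, such a ranking describes these livers only.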

How the data were processed

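The deposited table holds signal intensities on a linear scale, made by the authors with MAS5 per the submitters' processing notes, and no source used here gives its version or scale factor. The middle 96% of intensities had nearly the same mean on all 6 arrays, while the median intensities ran from 78.2 to 95.2. Names came from GEO's platform annotation, in which 34945 probe sets had 1 symbol, 932 had several, and 9160 were not listed. Entrez identifiers found 34741 in RefSeq (GRCm38.p6), changing 0 symbols.

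Intensities were log2-transformed without a pseudocount. Probe sets in the lowest 40% by mean (intensity under 47.4) were left out, and a gene was represented by its brightest probe set. Tests were all two-sided. Group differences used limma 3.58.1 (lmFit, eBayes with intensity trend) in R 4.3.3 over 27022 probe sets or 13312 genes, and this fit was tested on simulated data. The gaps between 2 probe sets of Slc1a2 and of Znrf3 used an exact permutation over the 6 arrays. Figures used matplotlib 3.10.9. Arrays with the same replicate number did not deviate together (r between -0.062 and 0.070), so no block was used. Members, lists and the naming rule were chosen with earlier results of these data known. Named were all members, list genes that were called, the 4 list genes with the smallest p, fixed Wnt and zonation genes, and the 3 nearest profiles. Gls2, one of the fixed genes, is not analysed here. The second probe sets of list genes were chosen after their values were seen. Precision is limited by the number of arrays.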

Additional observations from a re-analysis of the deposited data

How the results depend on the processing

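With 3 livers a group, the calls turned on small changes. The Slc1a2 difference of -1.22 passed at gene level under 7 of 16 alternatives: quantile, cyclic loess and median scaling, no filter, the lowest 60% left out, log2(intensity + 32) and array weights. It was -1.22 and not called without the variance trend (limma adjusted p = 0.312), -1.22 and not called with the replicate block (limma adjusted p = 0.0632, though the numbers did not pair the arrays), -0.68 when probe sets were averaged, and between -1.33 and -1.03 with 1 array left out. The number of member genes called was 1, and 0 without the trend, with the replicate block and with the mean of probe sets (3, 4 and 3 at an unadjusted p under 0.05 by limma), and 0 in each fit without 1 array (between 2 and 4 at an unadjusted p under 0.05). The number of member probe sets called was 0, and 1 with the lowest 60% left out, with log2(intensity + 32) and with array weights. Without 1 array it was 0 each time by limma (between 2 and 4 at an unadjusted p under 0.05). The members' median was -0.016 when probe sets were averaged, and between -0.35 and -0.11 with 1 array left out. It was -0.32 after quantile normalization, -0.33 after cyclic loess and -0.20 after median centring. In that order, 5, 5 and 2 member genes had an unadjusted p under 0.05 by limma (1672, 1662 and 1252 of all 13312 genes). Glul 1426236_a_at differed by -0.38 after quantile and -0.37 after cyclic loess normalization (limma adjusted p = 0.279 and 0.282). Oat likewise differed by -0.33 and -0.34 (limma adjusted p = 0.353 and 0.392).

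Over all genes 30 were called, against 0 without the trend (1350 at an unadjusted p under 0.05), 62 with array weights, 18 with the mean of probe sets and 8 to 19 with 1 array left out. Over all probe sets 19 were called, against 29 after quantile normalization, 46 with the lowest 60% left out, 39 with log2(intensity + 32), 0 without the trend (2429 at an unadjusted p under 0.05), 77 with array weights and 8 to 33 with 1 array left out. Of 223 recomputed probe set differences, 213 kept their sign. The 10 that turned were of Rhbg (0.016 after quantile normalization, 0.018 after median centring, 0.23 with array weights, and -0.28 to 0.35 with 1 array left out), of Axin2 (-0.14 to 0.20 with 1 array left out) and of Glul 1426235_a_at (-0.34 to 0.0074 likewise). The cause was not tested.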
